A study of Mus musculus with 6 samples.

Results

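The CCN genes encode a family of 6 secreted matricellular proteins, of which 5 are described here in islets of Nkx6-1 mutants and in control islets. Members were the array probes, control spots aside, whose gene name in the scanner files was Nov, Ctgf, Cyr61, Wisp1 or Wisp2, now called Ccn3, Ccn2, Ccn1, Ccn4 and Ccn5. This gave 5 genes on 6 probes, of 31829 gene names on 39429 probes. The family was taken up because Nov stood among the largest rises of the same comparison, so the differences of all members between mutants and controls are given as a description, without a test.

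CCN proteins are built from modules that resemble an insulin-like growth factor binding domain, a von Willebrand factor type C repeat, a thrombospondin type 1 repeat and, except in Ccn5, a cystine knot at the C terminus. They act in the matrix around cells, where they bind integrins, heparan sulfate proteoglycans and LRP receptors and modulate growth factors. Cyr61 and Ctgf are textbook targets of YAP with TEAD factors, of serum response factor and of TGF-beta, and Wisp1 and Wisp2 were named for their induction by WNT1. In the pancreas Ctgf is known as a secreted factor of beta cell proliferation, and Nov as a protein that restrains growth in many cell types.

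The samples were islets of male mice at 6 weeks of age. Mutants were Nkx6.1fl/-;Pdx1-CreERTM and controls Nkx6.1fl/+;Pdx1-CreERTM, so every mouse carried the floxed allele and the Cre. All received tamoxifen at 2 mg per 25 g body weight in 4 injections that began at 4 weeks. The Nkx6.1-flox line was on a mixed FVB/N and C57Bl/6J background and the Pdx1-CreERTM line on a mixed Cd1 and C57Bl/6J background. The Cre is driven by the Pdx1 promoter, which is active in the pancreas. The null allele of the mutants was present before tamoxifen as well, and the controls kept a wild-type allele. Each of the 3 control and 3 mutant RNA samples pooled 2 pancreata and was read on 1 single-colour Agilent array. Control 1, mutant 2 and mutant 3 shared slide 1, and control 2, control 3 and mutant 1 shared slide 2.

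The array reads each CCN gene through probes of 60 bases. The first 30 bases of each are printed because every value that follows is the signal of 1 of these probes. They are given 5′ to 3′, in lower case, as in the scanner files, and no letters are marked.
Nov: aatgaaagatgttccgaatgtaaacttaga
Ctgf: gtcaaatccctgttggtgaacaaatggcct
Cyr61: aagattagttgggccaagtgaaagccctgc
Wisp1, the probe used for the gene: cattcctcatttttctcatgatctgtgtag
Wisp1, the other probe: ctaacgatatctttgctgacttggaatctt
Wisp2: gtatttgtaaaaatacacatctcttaaatg
The longest run of bases that any of these probes shared with a probe of another gene name was 12 to 14 bases. Over the whole probes, 35% to 45% of bases were G or C.

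The probes lie on 4 chromosomes of the mm9 build. The Nov probe is at chr15:54584204-54584263 on the plus strand, and the Wisp1 probes are at chr15:66754637-66754696 and chr15:66750958-66751017, also on the plus strand, about 12.2 Mb away. The Ctgf probe is at chr10:24318281-24318340 (plus), the Cyr61 probe at chr3:145310187-145310246 (minus) and the Wisp2 probe at chr2:163658717-163658776 (plus). Which exon or untranslated region each probe reads was not analysed here.

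Signals are given as normalized log2 values, on which 0 is the 75th percentile of the spots of that array. Of the arrays, 73.4% to 76.3% of probes in controls and 63.9% to 74.4% in mutants were well above background, the flag of the scanner software, with mutants 1 and 2 at 66.8% and 63.9%. The dimmest probes above background read -7.28 to -7.09 on the control arrays and -7.12 on mutant 3, but -5.91 and -5.75 on mutants 1 and 2, so dim probes had a higher floor on those 2 arrays. The targeted gene Nkx6-1 read 4.79, 4.85 and 4.64 in controls 1 to 3 and 4.32, 4.06 and 4.45 in mutants 1 to 3. Its difference of -0.48 (SE 0.14) separated the groups and missed the threshold (limma, adjusted p = 0.131, and 0.155 with slide as a block). Whether its probe, at positions 102088319 to 102088378 of chromosome 5, lies in the deleted part is not known. Over all 22775 genes tested, 4600 (20.2%) had an unadjusted p under 0.05, the share against which such counts of the lists are to be read, and 576 (2.53%) passed an adjusted p of 0.05, 320 (1.41%) higher and 256 (1.12%) lower in mutants, and the median difference was -0.025.

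Among the 4 CCN genes bright enough to be tested, Nov was the member set apart by size. Nov was 13.4-fold higher in mutants, Ctgf differed by less than its standard error, and Cyr61 was 1.45-fold lower. Wisp1 was lower too, but mutant 2 was at background there, and without that array its difference was -0.28. The fit called 1 of the 4, which is Nov, beside 2.53% of all genes, and nothing is read from that count since the family was chosen on this comparison. The groups did not overlap in 3 of the 4, beside 26.3% of all genes, and nothing is read from this count either. Nov is 1 of the 3, and Wisp1, another, passed the filter on dim probes through its controls only. Of the 4, 2 were higher and 2 lower in mutants, but the sign of Ctgf rests on control 3, so no direction is read for the family.

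Nov encodes Ccn3, a member that binds integrins and the extracellular part of Notch1. Its normalized log2 signal was -3.47, -4.55 and -5.37 in controls 1 to 3 and -0.38, -1.02 and -0.75 in mutants 1 to 3. Every mutant array read more than 2 log2 units above the highest control. As background-corrected intensities before scaling, the same probe gave 174, 106 and 62.7 in controls and 1848, 911 and 962 in mutants, and it was well above background on all 6 arrays. The controls differed among themselves much more than the mutants did, with an SD of 0.96 against 0.32 (n = 3 each). The means were -4.46 and -0.72, and the difference was 3.75 (SE 0.48). Among all genes tested it ranked 11th by absolute size and 9th among rises.

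Within slide 1 the Nov difference was 2.58 and within slide 2 it was 4.58. The lone control of slide 1, control 1, had the highest Nov signal of the controls, and both controls of slide 2 had the lower ones. Across 20 other settings the difference stayed positive and ran from 2.91 to 4.24. Some of these settings could not move it, and leaving arrays out could not make it negative, since the groups did not overlap. The lowest values came from normexp background correction, which draws dim signals together, at 2.96, and 2.91 with quantile normalization added.

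**Figure D1:**
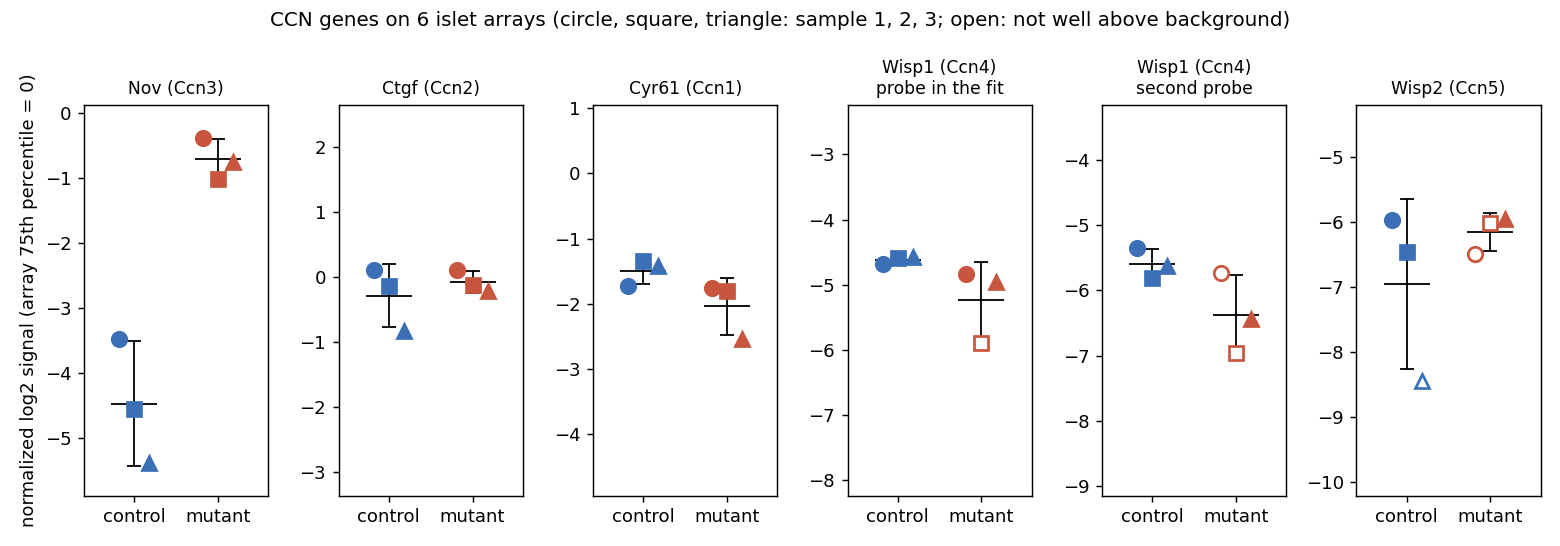
Normalized log2 signal of each CCN probe (y axis, 0 is the 75th percentile of the array) in 3 control and 3 mutant arrays, with the group mean and SD as bars; panels span the same number of log2 units and open symbols are not well above background. The mutant points of Nov lie between -1.02 and -0.38, above controls between -5.37 and -3.47, and the groups overlap for Ctgf, the other Wisp1 probe and Wisp2.

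Ctgf encodes Ccn2, a matrix protein induced by TGF-beta and by YAP. Its signal was 0.10, -0.14 and -0.82 in controls 1 to 3 and 0.11, -0.13 and -0.22 in mutants 1 to 3. The first 2 samples of each group had nearly the same pair of values, and control 3 alone was low, so the groups overlapped. The means were -0.29 ± 0.48 (SD, n = 3) and -0.078 ± 0.17 (SD, n = 3). The difference was 0.21 (SE 0.25), a 1.15-fold higher level in mutants, and 51.8% of all genes had a larger absolute difference. It was -0.28 within slide 1 and 0.59 within slide 2, opposite in sign. Without control 3 it was -0.061, so its sign rests on that array.

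Cyr61 encodes Ccn1, an immediate early gene product that binds integrins. Its signal was -1.73, -1.35 and -1.43 in controls 1 to 3 and -1.76, -1.81 and -2.54 in mutants 1 to 3. All mutants lay below all controls, but mutant 1 and control 1 nearly met, and mutant 3 was the low array. The means were -1.50 ± 0.20 (SD, n = 3) and -2.04 ± 0.44 (SD, n = 3), and the difference was -0.54 (SE 0.24). It was -0.45 within slide 1 and -0.38 within slide 2. Without mutant 3 it shrank to -0.29, and with mutants 1 and 2 left out together, which leaves mutant 3 alone, it was -1.04. Of all genes, 18.2% had a larger absolute difference.

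Wisp1 encodes Ccn4, and its 2 probes start 3679 bases apart. The brighter probe, which stood for the gene, read -4.69, -4.59 and -4.57 in controls 1 to 3 and -4.84, -5.90 and -4.95 in mutants 1 to 3. The controls lay within a narrow range, all mutants lay below it, and mutant 2 was not well above background and read below the floor of that array. The means were -4.62 ± 0.061 (SD, n = 3) and -5.23 ± 0.58 (SD, n = 3), with a difference of -0.61 (SE 0.29) that 14.5% of all genes exceeded in size. It was -0.74 within slide 1, which holds mutant 2, and -0.26 within slide 2. Without mutant 2 it was -0.28. The deposited table of equalized values gave -0.33 and normexp correction -0.23.

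The other Wisp1 probe read -5.35, -5.80 and -5.62 in controls and -5.74, -6.95 and -6.44 in mutants. It was above background on 3 control arrays and 1 mutant array, and here mutant 1 lay above control 2, so the groups overlapped. Its difference was -0.79, with -1.35 within slide 1 and -0.028 within slide 2. Both probes were thus lower in mutants, and on both mutant 2 was the lowest array.

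Wisp2 encodes Ccn5, the member without the cystine knot. Its signal was -5.97, -6.46 and -8.44 in controls 1 to 3 and -6.50, -6.03 and -5.96 in mutants 1 to 3. As background-corrected intensities these were 30.6, 28.2 and 7.45 in controls and 26.6, 28.3 and 26.0 in mutants, so 5 arrays were alike and control 3 was low. The probe was well above background on controls 1 and 2 and mutant 3 only, and it was not tested. The difference of 0.80 became 0.052 without control 3, with -0.025 within slide 1 and 0.95 within slide 2. Wisp3 (Ccn6), which the family also includes but the choice of members did not, was above background on 1 control array and no mutant array, and no fold is given.

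**Figure D2:**
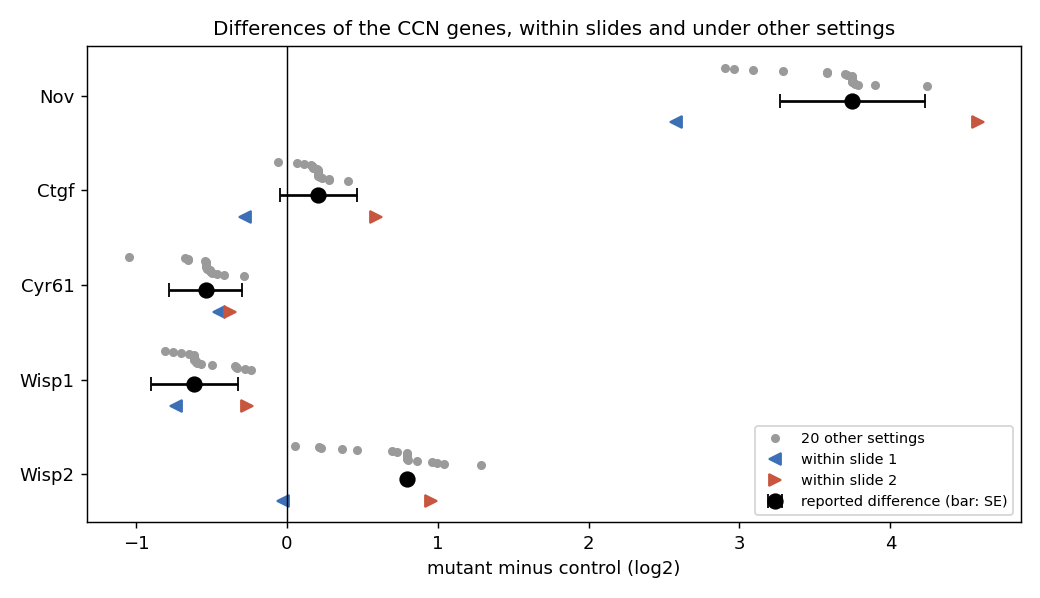
Mutant minus control difference of each CCN gene (x axis, normalized log2 signal): the reported value with its SE (black, none for Wisp2), the value under 20 other settings (grey) and within each slide (triangles). Nov stays between 2.91 and 4.24 over the settings and reads 2.58 and 4.58 within the slides. Cyr61 and Wisp1 stay below 0, and for Ctgf and Wisp2 the slides differ in sign. Leaving arrays out could not reverse the sign for Nov, Cyr61 or Wisp1.

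Islets as isolated contain cells other than beta cells, and in such bulk RNA fewer cells of a type and less RNA per cell cannot be told apart. The beta cell genes Ins1, Ins2 and Iapp read 7.83, 7.78 and 7.47 in controls and 8.09, 8.03 and 7.73 in mutants, so the defining genes of the labelled tissue were bright. Acinar enzyme genes such as Cpa1 were bright too, at 7.09 in controls and 7.48 in mutants. Of 8 beta cell markers 2 fell, beside 1.12% of all genes. These were the glucose transporter Slc2a2, by 2.01 (limma, adjusted p = 0.0415), and the peptide Ucn3, by 1.24 (adjusted p = 0.0236). With 1 array fewer Slc2a2 passed without mutant 1 alone (0.0207, and up to 0.169 without control 3), and Ucn3 passed without control 1 (0.0495) or mutant 1 (0.0246) and reached 0.118 without control 3. Averaged over the 8 genes and set against the average control, mutants 1 to 3 read -0.54, -0.57 and -0.56. Of the markers of mesenchyme (9 tested of 10), endothelium (8), acinar cells (9), ducts (6), leukocytes (6) and Schwann cells (5), limma called 0, with 2 at an unadjusted p under 0.05, 1 in the duct and 1 in the leukocyte list.

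Mesenchymal cells are a known source of CCN proteins. Their marker mean varied among the controls in the order of Nov, Ctgf and Wisp2 but not of Cyr61 or Wisp1. Set against the average control, the 9 markers averaged 0.81, -0.16 and -0.64 in controls 1 to 3 and 0.36, 0.47 and 0.25 in mutants 1 to 3. By gene, 8 of the 9 were higher in mutants. Their median difference was 0.38, but -0.37 within slide 1 and 0.83 within slide 2. Control 1 was the highest and control 3 the lowest control for these markers and also for Nov, Ctgf and Wisp2. Wisp2 was not well above background on control 3. For Cyr61 and the Wisp1 probe used for the gene, control 1 was instead the lowest control. This order of controls was not particular to mesenchyme. The beta cell mean had it too, at 0.12, -0.050 and -0.069 in controls 1 to 3. Endothelial, duct and leukocyte means were also highest in control 1. Among mutants the mesenchymal mean was highest in mutant 2, where Nov was lowest, while Ctgf was highest in mutant 1 and Wisp2 in mutant 3. The summed signal of the mesenchymal list, in units of the 75th percentile of the array, ranged from 5.57 to 14.9 in controls. In mutants it ranged from 10.4 to 12.3. The mutant sums lay inside the range of the control sums. Pdgfra was the marker that was too dim to test. The part of mesenchyme in the CCN values was not tested.

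The other marker sums ran from 22.7 to 26.4 in controls and 23.4 to 25.1 in mutants for endothelium, from 4.85 to 5.63 and 4.80 to 6.36 for ducts, and from 0.839 to 1.10 and 1.05 to 1.19 for Schwann cells. Leukocyte markers summed to 11.6 to 16.8 in controls and 10.5 to 10.8 in mutants, a sum in which Cd3e was the brightest gene. Averaged on the log2 scale they overlapped, at 0.46, -0.27 and -0.19 in controls 1 to 3 and 0.20, -0.38 and -0.29 in mutants 1 to 3. Acinar markers summed to 996 to 1287 in controls and 659 to 2563 in mutants, and averaged -0.81, 0.86 and 1.51 in mutants 1 to 3 on the same relative log2 scale. Cyr61 had its lowest signal on mutant 3, the array with the highest acinar mean and also the highest duct mean (0.78). Among controls the order differed, since control 1 had the lowest Cyr61 signal (-1.73) and the lowest acinar mean (-0.26). The part of acinar RNA in the Cyr61 values was not tested.

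Around the family, 9 lists held its receptors, its known regulators and its relatives, with 144 genes tested of 159. Of these 5 rose and 1 fell, which is 4.17% beside 2.53% of all genes, and their median difference was 0.040. The 6 called genes are spread over 5 lists. With 1 array fewer 7 list genes passed without control 1, 0 without control 2 or control 3, 4 without mutant 1, 1 without mutant 2 and 2 without mutant 3, and which of the named genes these were is given with each gene.

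Among receptors and binding partners 1 of 14 tested genes rose and 0 fell, with a median of 0.098. The gene that rose was Notch1, a receptor whose extracellular part Nov binds. Notch1 read -2.67, -3.80 and -3.43 in controls 1 to 3 and from -1.61 (mutant 1) to -0.67 (mutant 2) in mutants, so the groups were apart. It rose 4.62-fold (difference 2.21, SE 0.36, limma adjusted p = 0.0434). The slide block gave 0.0191, with differences of 1.84 and 2.00 within slides 1 and 2. A further Notch1 probe, above background on 3 control arrays and 1 mutant array, read -0.36 with overlapping groups, and the mean of both probes did not pass (difference 0.92, adjusted p = 0.146). Of the fits with 1 array fewer, Notch1 passed only without control 1 (0.0442), with 0.171 as the highest adjusted p, without control 3.

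The integrin and LRP receptors did not pass. Integrin alpha V (Itgav), which pairs with several beta chains to bind CCN proteins, was at -0.58 (limma, adjusted p = 0.158), and its partners Itgb1, Itgb3 and Itgb5 were at 0.42 (0.0918), 0.78 (0.267) and 0.15 (0.478). The leukocyte integrin chains Itgb2 and Itgam were at -0.75 (0.0809) and -0.49 (0.249). Lrp1 and Lrp6, endocytic and Wnt co-receptors, were at 0.10 and 0.094. Sdc4, a heparan sulfate proteoglycan, was at 0.17 overall but at 1.69 within slide 1 and -1.77 within slide 2.

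Cyr61 and Ctgf are read widely as reporters of YAP and TEAD activity, and the lists for that pathway held 1 called gene in all. Of 16 tested genes for Hippo kinases, adaptors and TEAD factors limma called 0, with 2 at an unadjusted p under 0.05, and the median was 0.0025. The coactivator Yap1 was at 0.54 (SE 0.37, limma adjusted p = 0.459) and Tead2 at 0.77 (SE 0.66, adjusted p = 0.555), both with overlapping groups, and Tead2 read 1.63 within slide 1 and -0.58 within slide 2. Wwtr1, which encodes TAZ, was at -0.22. Tead3 and Tead4 were too dim to test.

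Of 17 tested YAP and TEAD targets outside the family, 1 rose and 0 fell, with a median of -0.025. The gene that rose was Nt5e, the ectoenzyme CD73 that makes adenosine. Nt5e read -5.12, -6.87 and -6.55 in controls and -2.82, -2.90 and -2.17 in mutants, a rise of 3.55 (SE 0.48, limma adjusted p = 0.0302, and 0.0337 with slide as a block). Of the fits with 1 array fewer it passed without control 1 alone (0.0243), and the highest adjusted p was 0.143, without control 3. The targets most often used beside Cyr61 and Ctgf did not pass: Ankrd1 was at -0.91 (limma, adjusted p = 0.458), Amotl2 at 0.18 (0.680) and Axl at -0.20 (0.612).

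Serum response factor drives Cyr61 and Ctgf through actin dynamics. In the list of that factor, its cofactors and actin genes 1 of 15 rose and 0 fell, with a median of 0.18. Zyx, the focal adhesion protein zyxin, was at 0.16, 0.16 and 0.028 in controls and 0.91, 0.67 and 0.74 in mutants. It rose by 0.66 (SE 0.11, limma adjusted p = 0.0448), and it missed the threshold with slide as a block (0.0504). It passed in no fit with 1 array fewer, where its adjusted p ran from 0.0693 to 0.185. Srf was at -0.043, the actin genes Actb and Actg1 were at -0.31 and 0.26, and the smooth muscle genes Acta2 and Tagln were at 0.17 and 0.076. Fhl2, a LIM protein picked out after its value was seen, was at 2.06 (adjusted p = 0.0527, and 0.0171 with slide as a block).

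Immediate early genes, the class of rapidly induced genes to which Cyr61 belongs, included 17 tested genes and 0 that passed in limma, with 3 at an unadjusted p under 0.05. Their median was -0.24, but -0.037 within slide 1 and -0.085 within slide 2, beside -0.013 and -0.039 for all genes. Fosb was at -0.79 (SE 0.17, limma adjusted p = 0.0722, and 0.0389 with slide as a block), with all mutants below all controls. Nr4a1 was at 0.65 (SE 0.45, adjusted p = 0.463) with overlapping groups. Fos, Jun and Egr1 were at -0.26, -0.25 and -0.31, with adjusted p values of 0.786, 0.616 and 0.681.

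TGF-beta induces Ctgf. In its pathway 1 of 19 genes rose and 0 fell, with a median of 0.034. Tgfbr3, betaglycan, a co-receptor that presents TGF-beta ligands, read 0.22, -0.11 and -0.0037 in controls and 1.07, 1.06 and 0.93 in mutants. It rose by 0.99 (SE 0.12, limma adjusted p = 0.0256, and 0.0373 with slide as a block), passed without control 1 (0.0353) and missed the threshold without each other array (up to 0.135, without control 3). The ligands Tgfb1, Tgfb2 and Tgfb3 were at -0.11, -0.027 and 0.046, Smad2 and Smad3 at -0.33 and 0.015, and the target Smad7 at 0.12. Ltbp2, a latent TGF-beta binding protein relative picked out after its value was seen, was at -2.19 (adjusted p = 0.0640).

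Of 19 tested Wnt pathway genes limma called 0, with 5 at an unadjusted p under 0.05, and the median was -0.021. The 2 largest differences belonged to secreted Wnt modulators, Dkk3 at 1.08 (SE 0.44, limma adjusted p = 0.248) and Wif1 at 1.01 (SE 0.37, adjusted p = 0.207). Both had all mutants above all controls. Ctnnb1, which encodes beta-catenin, was at 0.070, and the feedback targets Axin2 and Nkd1 were at 0.28 and 0.42. Lef1, Tcf7 and Dkk1 were among 6 Wnt genes too dim to test.

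Other matricellular proteins had 1 gene up and 1 down of 16 tested, which is 12.5% beside 2.53% of all genes. Nothing is read from this count of 2 genes. The median was 0.28, but -0.15 within slide 1 and 0.45 within slide 2. Smoc1, a calcium-binding relative of SPARC, read -1.74, -1.88 and -1.93 in controls and -0.083, 0.00077 and -0.19 in mutants. It rose by 1.76 (SE 0.11, limma adjusted p = 0.00601, and 0.0146 with slide as a block), with SDs of 0.096 and 0.094. It missed the threshold without control 2 (0.0587) and without control 3 (0.0513).

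Spock1, testican-1, a proteoglycan of the same SPARC group, read -1.68, -0.87 and -0.42 in controls and -2.94, -3.72 and -3.60 in mutants. It was 5.40-fold lower and fell by 2.43 (SE 0.37, limma adjusted p = 0.0382, and 0.0168 with slide as a block). Another probe of Spock1 read -1.01, and with the mean of both the difference was -1.72 (adjusted p = 0.0551). Of the fits with 1 array fewer it passed without control 1 alone (0.0362), and the highest adjusted p was 0.147, without control 2. Smoc1 and Spock1 thus changed in opposite directions, and Sparc itself was at 0.29 (0.613). The thrombospondins Thbs1, Thbs2 and Thbs3 were at 0.37, 0.63 and 0.96, and Spp1, osteopontin, was at -0.067.

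The IGF list held the growth factors whose binding proteins share a domain with the CCN family. Limma called 0 of 15 tested genes, with 6 at an unadjusted p under 0.05, and the median was -0.055. The binding protein genes Igfbp4 and Igfbp6 had the largest differences, at 0.86 (SE 0.41, limma adjusted p = 0.310) and 0.82 (SE 0.27, adjusted p = 0.174). Igf1r, the receptor for IGF1, was at -0.66 (adjusted p = 0.0537), and Igf1 and Igf2 were at -0.22 and -0.49.

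**Figure D3:**
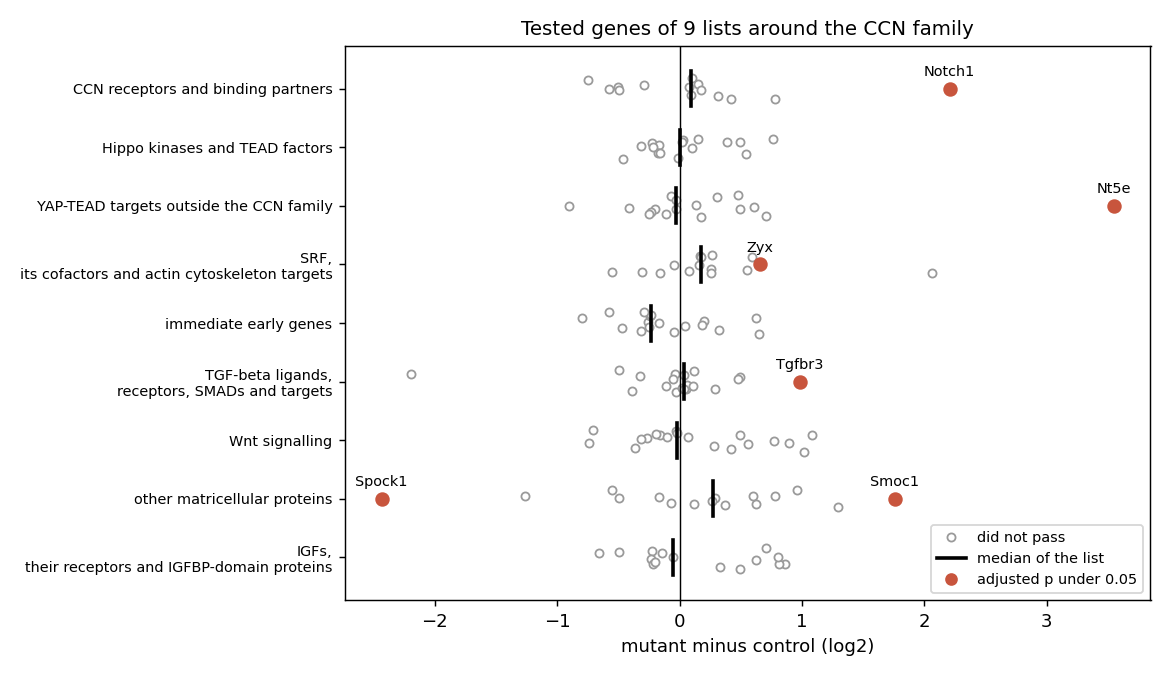
Mutant minus control difference (x axis, normalized log2 signal) of each tested gene in 9 lists around the CCN family (rows), with the list median as a black bar and called genes filled and named. The 6 called genes lie apart from medians between -0.24 and 0.28.

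The genes nearest to each member over the 6 arrays were found by the root mean square difference of log2 signals, each centred on its own mean, among the 22774 other genes tested. Since the difference between the groups enters this measure, it says only which genes had like values on these arrays. For Nov the nearest were D830026I12Rik (0.380), ENSMUST00000043406 (0.391), the NADPH oxidase gene Nox4 (0.402), LOC620306 (0.431) and Nt5e (0.455). Nox4 read -5.19, -5.48 and -6.08 in controls and -2.12, -1.96 and -2.16 in mutants, a difference of 3.50. The probe of ENSMUST00000043406 starts 88 bases from that of Nox4 on the same strand of chromosome 7, so these are readings of 1 locus. D830026I12Rik and LOC620306 were above background on 1 control array each and ENSMUST00000043406 on 2, so their control values lie near background. Nox4 and Nt5e, which were above background on all 6 arrays, had their highest control value in control 1, as Nov did.

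For the other members, whose own values spread less, the distances were smaller. The nearest genes to Ctgf were Rarres2, the gene for chemerin (0.0782), Hhatl (0.0872) and the receptor gene Mas1 (0.0965), all with overlapping groups and, like Ctgf, negative within slide 1 and positive within slide 2. For Cyr61 they were Nqo1, a quinone reductase (0.0617), the importin gene Ipo13 (0.0634) and ENSMUST00000061860 (0.0746), with differences of -0.60 to -0.59. For Wisp1 they were ENSMUST00000114477 (0.0563), 6330575P09Rik (0.0686) and an unnamed transcript (0.0739). These 3 were above background on all 3 control arrays but on only 0, 2 and 1 mutant arrays. On mutant 2 they read -7.76, -6.13 and -7.14, below the floor of that array (-5.75), as Wisp1 did. Their likeness to Wisp1 thus rests partly on readings near background. None of these nearest genes belongs to the family.

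**Figure D4:**
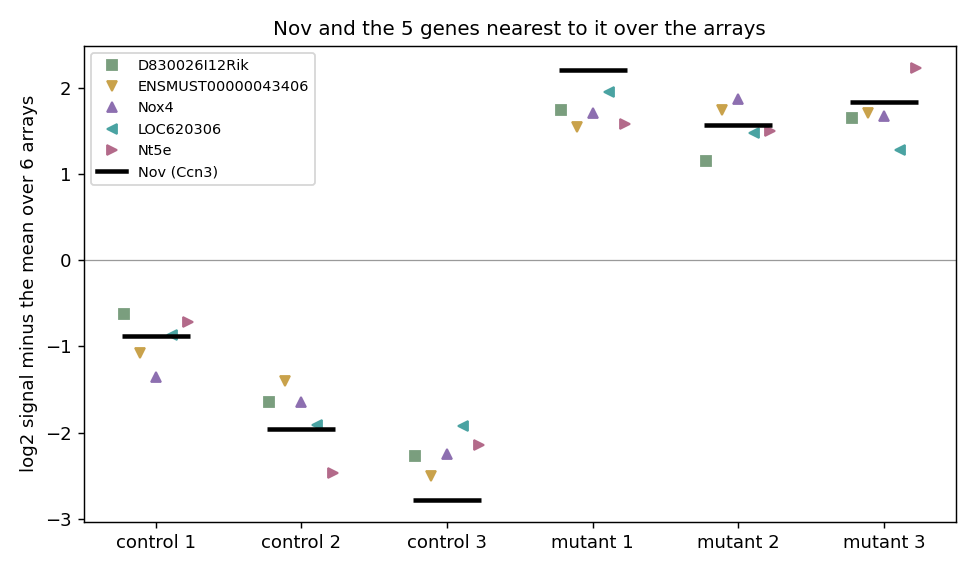
Normalized log2 signal minus the gene's own mean over 6 arrays (y axis) on each array (x axis) for Nov (black bars) and the 5 gene names with the smallest root mean square difference from it (symbols). All read below their mean on the 3 control arrays, least so on control 1, and above it on the 3 mutant arrays.

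Genes beside the members on the chromosome were taken from a window of 1 Mb on each side of the probe, set by position after the design was fixed. Around Nov 15 genes were tested, of which 1 rose and 0 fell (6.67% called, beside 2.53% of all genes), with a median of 0.20. The gene that rose was Tnfrsf11b, which encodes osteoprotegerin, a secreted decoy receptor for RANKL, with its probe 501 kb from that of Nov on the side of lower coordinates (chr15:54082760-54082819). Tnfrsf11b read -0.14, 0.083 and -0.49 in controls and 2.62, 2.71 and 2.28 in mutants. It rose 6.58-fold (difference 2.72, SE 0.19, limma adjusted p = 0.00757, and 0.0169 with slide as a block), with 2.64 and 2.82 within slides 1 and 2. It missed the threshold without mutant 2 (0.0505) and passed without each other array. With slide as a block 3 of the 15 passed, namely Tnfrsf11b, Gm2437 and Enpp2, beside 670 of all 22775 genes in that fit.

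Closer to Nov, Gm2437 at 61.2 kb was at 2.12 (limma, adjusted p = 0.211, and 0.0157 with slide as a block). Its groups overlapped, with control 1 at 4.17 above mutant 1 at 3.58, and it read 1.43 and 1.46 within slides 1 and 2. Enpp2, the autotaxin gene, at 86.7 kb was at 0.87 (0.0664, and 0.0347 with slide as a block). Mal2, 150 kb away on the side of Tnfrsf11b, was at 0.53 (adjusted p = 0.150). The genes from Taf2, at 263 kb, outward on the side of higher coordinates ran from -0.59 to 0.39, and Sntb1 at 887 kb was the lowest (adjusted p = 0.0533). Gm5215, which like Mal2 lies between Tnfrsf11b and Nov, was at 0.43 (adjusted p = 0.407).

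**Figure D5:**
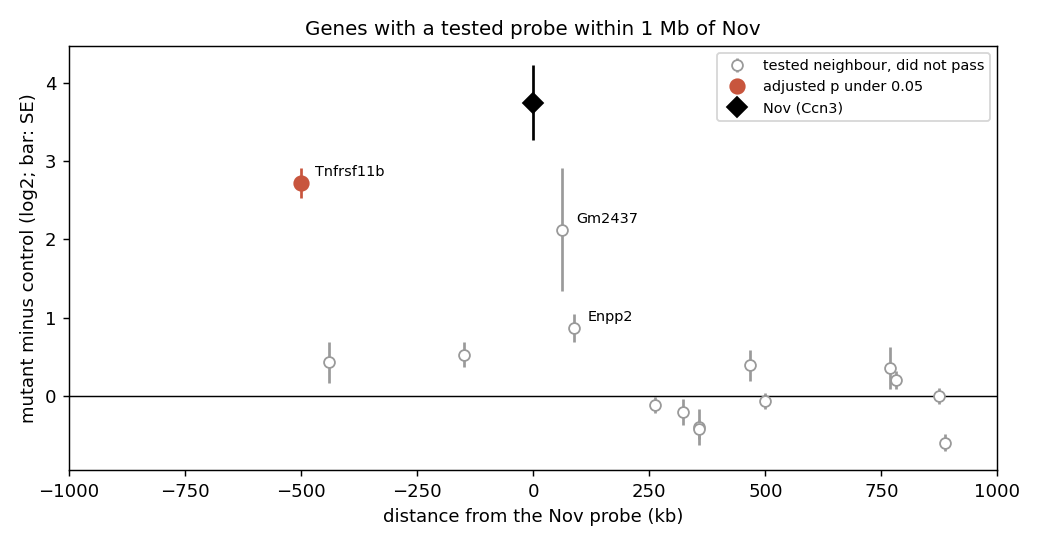
Mutant minus control difference (y axis, normalized log2 signal, bars are the SE) of Nov and of the 15 tested genes within 1 Mb, by distance from the Nov probe (x axis, kb). Tnfrsf11b at -501 kb is the neighbour that passed without a slide block, at 2.72, and 12 of the others lie between -0.59 and 0.53.

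Around the other members 2 of 104 neighbours passed (1.92%), beside 2.53% of all genes, and 3 with slide as a block. Of 16 tested genes around Ctgf 1 fell, the trace amine receptor gene Taar1, by 1.24 (limma, adjusted p = 0.0218), which missed the threshold in every fit with 1 array fewer (0.0508 to 0.0955). Akap7, in the same window, was at 2.26 (adjusted p = 0.0870) and passed with slide as a block (0.0157). Of 57 around Wisp2 1 rose, Wfdc16, by 2.39 (adjusted p = 0.0254), which passed without control 1 (0.0316) and missed the threshold without each other array (up to 0.115, without control 2). Limma called 0 of 22 genes around Cyr61 and 0 of 9 around Wisp1, with 7 and 1 at an unadjusted p under 0.05. The Wisp1 window lies on the same chromosome as Nov, and its median was -0.34.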

How the data were processed

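Islet RNA of 3 control and 3 mutant samples (150 ng each, labelled with Cy3) was read on single-colour arrays. Per the file headers, the authors' scanner files hold spot intensities from Agilent Feature Extraction 10.7.3.1, corrected for background and with no scaling between arrays, beside deposited flags (other values) for saturation, outlying spots and signal well above background. A deposited table of linear intensities, equalized between arrays by the authors in a way that no source used here states, served as an alternative. Compared with the scanner files it ranks probes by their median spot signal, at correlations of at least 0.999, and its columns have medians of 266.95 to 274.55.

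From the background-corrected intensities, log2 values minus the 75th percentile of the array were taken for each spot, and spots with the same probe were averaged. A probe was tested where it was well above background on all arrays of at least 1 group (28361 of 39429), and each gene name was represented by its brightest tested probe (22775 of 31829 names). Wisp2 did not pass this filter. The comparison of mutants with controls used limma 3.58.1 (R 4.3.3, and data.table in version 1.17.8), two-sided, at a Benjamini-Hochberg adjusted p of 0.05 over all genes tested. An adjusted p in brackets after a value is from this fit. Replicates are pools of different pancreata. Current symbols come from RefSeq for GRCm38.p6, and coordinates are those of the files (mm9). The number of arrays limits the precision.

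The members, the gene lists and the rule for named genes were chosen with earlier results of these data known. The rule takes all CCN probes, Nkx6-1, the called genes of each list (at most 4, by p) or else its 2 largest differences, and the 5 genes nearest to Nov and 3 nearest to each other tested member. Genes named outside it were chosen after their values were seen. The pooled sample numbers recur in controls and mutants without a label that pairs them. They were not used as pairs. Samples that share a number had deviations from their group means that correlated, over genes, at -0.23, -0.19 and -0.031. None of them shared a slide, so these correlations cannot tell pairing from slide. For the 4 control and mutant pairs that shared a slide these correlations were 0.084 to 0.23, and values are also given with slide as a block and within slides. The fit was tested on simulated data. 20 alternatives were tried, 19 of them listed beforehand.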

Additional observations from a re-analysis of the deposited data

How the results depend on the processing

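Over 20 alternatives the difference of Nov stayed positive and those of Cyr61 and Wisp1 stayed negative. The adjusted p of 0.1, the variance trend, the filter changes and the block by pooled sample number could not move a difference. Leaving arrays out could not reverse the sign for Nov, Cyr61 or the Wisp1 probe used, whose groups did not overlap. With such fixed outcomes included, 97 values of the 5 CCN genes moved by less than the spread between replicates. The other 3 were Nov at 2.96 with normexp correction and 2.91 with normexp and quantile normalization, whose offset draws dim signals together, and Cyr61 at -1.04 with mutants 1 and 2 left out, an alternative chosen after seeing the data. With each array left out in turn Nov ran from 3.29 to 4.24, Ctgf from -0.061 to 0.40, Cyr61 from -0.68 to -0.29, Wisp1 from -0.81 to -0.28 and Wisp2 from 0.052 to 1.29, and Nkx6-1, which passed in none of the alternatives at its threshold of 0.05, from -0.57 to -0.37. The count of called pathway genes, 6, was 3 without a filter on dim probes, 12 with a variance trend and robust estimation, 15 at an adjusted p of 0.1, 1 with mutants 1 and 2 left out, and 0 to 7 with each array left out. Over the whole array the count of 576 became 1514 at an adjusted p of 0.1, 150 (120 higher, 30 lower) with mutants 1 and 2 left out, and 13 to 396 with each array left out. It was 13, 17 and 22 without control 2, control 3 and mutant 2, 180 and 305 without mutants 3 and 1, and 396 without control 1. With the pooled sample number as a replicate block limma called 0 genes over the whole array, with 3163 at an unadjusted p under 0.05, and 0 pathway genes, with 33 at that level. The check on deviations cannot tell whether the numbers pair the samples, since samples that share a number never shared a slide. Pairs of unlike number on different slides also correlated negatively (-0.099 and -0.12). Whether this block applies is therefore not known. With slide as a block 670 genes and 7 pathway genes passed. Without a filter the split of called genes was 314 higher and 99 lower, against 320 and 256. The sign reversed for Nr4a1 (-0.36) with mutants 1 and 2 left out, and the causes of these changes were not tested. Of the other values for named genes outside the family, 296 kept their direction and side of the threshold, 79 lost a call and 4 gained one. Signal over background limits Wisp1 and Wisp2, whose probes were not above background on every array.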
